A study of Homo sapiens with 4 samples.

Results

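Macroautophagy (autophagy hereafter) is the route by which a cell wraps part of its cytoplasm in a new double membrane, the autophagosome, and delivers it to lysosomes for digestion. The genes described here were 10 genes of that route chosen by name: the initiating kinase ULK1, the membrane and lipid supply genes ATG9A, ATG2A and WIPI1, the conjugation scaffold ATG16L1, the ubiquitin-like ATG8 proteins MAP1LC3B, GABARAPL1 and GABARAPL2, the cargo receptor SQSTM1 (p62), and TFEB, the transcription factor known for switching on lysosomal and autophagy genes. The choice was made with earlier results of these data known. Of the 10, 7 had a row in the deposited table of 6828 genes, and 3 (SQSTM1, ATG16L1 and TFEB) had none and were not analysed here. TFEB itself therefore has no value below, and the genes described are the 7 listed ones.

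As background, autophagy starts when the ULK1 kinase complex and a lipid kinase complex built on BECN1 mark a patch of membrane. ATG9A vesicles seed the new membrane, ATG2A moves lipid into it, and WIPI1 and its relatives bind the lipid made by the kinase. ATG8 proteins are then joined to the membrane by an enzyme cascade that ends with ATG16L1, and they recruit receptors such as SQSTM1 with their cargo. The kinase mTORC1, held on lysosomes by Rag GTPases, is known to inhibit both ULK1 and TFEB when nutrients are plentiful.

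RNA-seq was carried out in A549, a human lung adenocarcinoma cell line, to find genes that depend on USP2-AS1, a long noncoding RNA transcribed opposite to USP2. Cells were infected with lentivirus carrying a control hairpin (shctrl, 2 libraries) or a hairpin against USP2-AS1 (shUSP2-AS1, 2 libraries), and RNA was taken 72 h later, so that both groups had been infected. The model has limits: 1 cell line was used, a single hairpin is named in the table, which of the study's hairpins it was is not given in the sources used here, and neither uninfected cells nor cells with restored USP2-AS1 were among the libraries. The values are normalized read counts, that is, the reads of a gene in a library divided by a size factor for that library, and 1 read was worth a normalized count of 0.966 and 1.10 in shctrl replicates 1 and 2, and 1.05 and 0.880 in the same replicates of shUSP2-AS1.

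The listing itself was selected on the same contrast. All 6828 listed genes had an adjusted p-value below 0.05 in the comparison made by the authors, so a listed gene had to differ between the groups, and its presence or its small p is not a result about autophagy. The recovered reads summed to 12330115 and 10772788 in the controls and to 11715962 and 14120472 after knockdown, and these sums cover the listed genes only. Each of the 7 genes had 204 to 6159 reads per library.

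The target of the hairpin was measured first. USP2-AS1 had normalized read counts of 23.2 and 24.2 in the controls against 2.10 and 6.16 in the knockdown libraries. Both knockdown libraries were below both controls, from 24 and 22 reads down to 2 and 7. Of the 75-base stretches of an annotated 705-base USP2-AS1 transcript, 28.2% also occur in USP2 on the opposite strand. The study reports a longer main transcript in A549 cells, and its share was not measured. Whether reads were counted by strand is not given in the sources used here. The log2 fold change was -2.39 (SE 0.56; limma, Benjamini-Hochberg adjusted p = 5.97e-04). Here and below, a log2 fold change is the mean log2(normalized read count + 1) of the shUSP2-AS1 libraries minus that of the shctrl libraries, fitted with limma over 6812 genes with a mean of at least 10, and the adjusted p is over all 6812. A gene is called higher or lower when its adjusted p is below 0.05 and its log2 fold change is at least 1 in size. USP2-AS1 passed the filter on the mean only through the controls, so it had to be on the lower side.

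The 7 listed autophagy genes were higher after USP2-AS1 knockdown, and 3 of them (GABARAPL1, WIPI1 and ULK1) were called higher. None was called lower. Of all 6812 tested genes, 16.1% were called higher and 13.5% were called lower. On the adjusted p alone all 7 were higher, but 6811 of the 6812 tested genes passed that test, 50.6% of those tested being higher and 49.4% lower, so that passing it sets no gene apart. In each of the 7 the libraries of the groups did not overlap, and the same was true, in the higher direction, of 50.6% of the tested genes, which is every tested gene with a log2 fold change above 0. Because the genes were chosen with earlier results of these data known, their counts and their median are descriptions only. The median log2 fold change was 0.65 over the 7 genes and 0.19 over all tested genes. With RLE scaling both were lower by the same amount, at 0.53 and 0.07. With at least 10 reads required in every library the median over all tested genes was -0.16, while the values of the 7 genes were the same. Bulk RNA cannot tell apart a change in RNA per cell from a change in which cells were present.

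**Figure D1:**
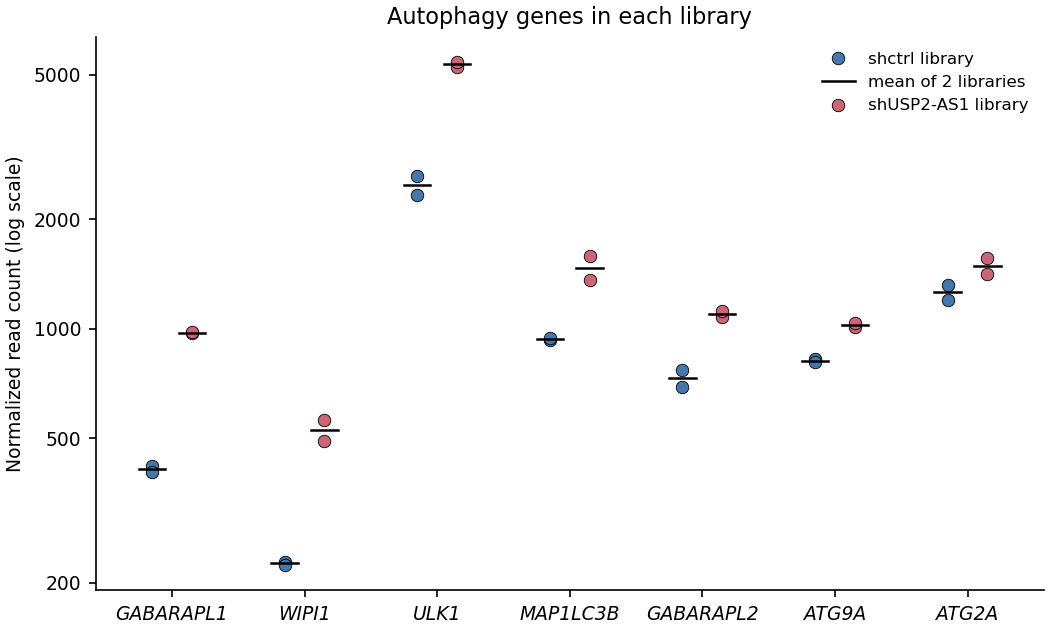
Normalized read count (log axis) of the 7 listed autophagy genes in each of the 4 libraries, with shctrl in blue, shUSP2-AS1 in red and the mean of 2 libraries as a bar. Both red points lie above both blue points for each gene, from a wide gap for GABARAPL1 (412 against 975 on average) to a narrow one for ATG2A (1260 against 1487).

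ULK1, the kinase that starts autophagosome formation, was the most abundant of the 7. Gene ULK1 (ENSG00000177169) lies at chr12:131894622-131923150 on the plus strand of GRCh38. Its normalized read counts were 2332 and 2625 in the controls and 5266 and 5423 in the knockdown libraries. The lower knockdown library was above the higher control by more than the spread within either group. The means were 2479 ± 208 and 5344 ± 110 (SD, n = 2), a 2.16-fold difference, with a log2 fold change of 1.11 (SE 0.06, 95% interval 0.99 to 1.23; limma, adjusted p = 1.06e-11). The interval reached below the threshold of 1, and with the libraries rescaled by RLE, the median-ratio scaling computed on the listed genes alone, the log2 fold change was 0.99 and the gene was no longer called.

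Of its complex, 3 of 5 genes were listed, with ULK1 the one called. ULK2, the close relative of ULK1, had a log2 fold change of 0.74 and normalized read counts of 664 and 739 in shctrl and 1147 and 1193 in shUSP2-AS1. ATG101, a small subunit of the complex, went the other way, with a log2 fold change of -0.37, from 753 and 679 to 558 and 549. ATG13 and RB1CC1, the remaining subunits, had no row. A ratio of 2 genes within a library does not depend on how libraries are scaled, and the ratio of ULK1 to ULK2 per kb of gene length was 4.55 and 4.60 in the controls and 5.94 and 5.89 in the knockdown libraries. ULK1 thus took a larger part of the ULK1 and ULK2 transcripts in both knockdown libraries than in either control.

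WIPI1, which binds the phosphoinositide on the forming membrane, was the least abundant of the 7. WIPI1 (ENSG00000070540) lies at chr17:68420948-68457513 on the minus strand. Its normalized read counts were 229 and 224 in the controls and 491 and 563 in the knockdown libraries. The controls were close together, and both knockdown libraries were above them, though further apart. The means were 227 ± 3.41 and 527 ± 50.6 (SD, n = 2). On the fitted scale the groups were 2.31-fold apart, with a log2 fold change of 1.21 (SE 0.10, 95% interval 0.99 to 1.43, limma adjusted p = 7.73e-09). Tested against a fold change of 2, WIPI1 was not called (limma, adjusted p = 0.158), nor was ULK1 (adjusted p = 0.188). Of the exonic bases of WIPI1, 24.4% are shared with ARSG on the opposite strand. ARSG had no row, and its part in the WIPI1 count was not tested.

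ATG9A, the membrane protein of the seeding vesicles, and ATG2A, the lipid bridge, differed least. ATG9A (ENSG00000198925) lies at chr2:219219380-219229717 on the minus strand and had normalized read counts of 828 and 808 in shctrl and 1014 and 1038 in shUSP2-AS1. The means were 818 ± 14.4 and 1026 ± 17.2 (SD, n = 2), with a log2 fold change of 0.33 (SE 0.07, 95% interval 0.18 to 0.47; limma, adjusted p = 2.20e-04), below the threshold of 1. The log2 fold change was 0.21 with RLE scaling (limma, adjusted p = 0.00764) and 0.21 in DESeq2 with its own size factors (adjusted p = 0.0385). A readthrough gene on the same strand (ENSG00000284820) covers 38.8% of the exonic bases of ATG9A, and reads in that part cannot be told apart.

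ATG2A (ENSG00000110046) lies at chr11:64894546-64917211 on the minus strand. Its normalized read counts were 1202 and 1318 in shctrl and 1563 and 1412 in shUSP2-AS1. The groups did not overlap, but the nearest libraries of the groups (1318 and 1412) were closer to each other than the 2 libraries of either group were. The means were 1260 ± 81.8 and 1487 ± 106 (SD, n = 2), with a log2 fold change of 0.24 (SE 0.07, 95% interval 0.09 to 0.38; limma, adjusted p = 0.00298). This was the one of the 7 whose adjusted p did not stay below 0.05 in every setting that tested for any difference. It was 0.114 with RLE scaling (limma, log2 fold change 0.12) and 0.198 in DESeq2 with its own size factors. Without shUSP2-AS1 replicate 1 the log2 fold change was 0.17.

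The other genes of membrane and lipid supply differed in both directions. Of 10 genes in that list 7 were listed, and 2 were called higher (16.1% of all tested genes were): WIPI1 and ATG9B, the second ATG9 gene. ATG9B was rare, at 3.87 and 2.20 normalized read counts in shctrl and 23.1 and 28.2 in shUSP2-AS1, with a log2 fold change of 2.75 (SE 0.55; limma, adjusted p = 1.40e-04). It passed the filter on the mean only through the knockdown libraries, so it had to be on the higher side, and without it 1 of 6 was called, against 14.5% of all tested genes with a mean of at least 10 in both groups. VMP1, which moves lipid between membrane leaflets at the endoplasmic reticulum, had a log2 fold change of 0.54 and ATG2B, the partner of ATG2A, one of 0.51. WDR45B, a relative of WIPI1 in the same lipid-binding family, had one of -0.59, from 2290 and 2139 to 1464 and 1477. WIPI1 and WDR45B thus differed in opposite directions, and their ratio per kb was 0.104 and 0.109 in the controls and 0.349 and 0.396 in the knockdown libraries. The ratio of ATG2A to ATG2B was 2.82 and 3.25 in the controls and 2.54 and 2.48 in the knockdown libraries, lower in both.

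The ATG8 proteins are the small tags that are attached to the autophagosome membrane and hold cargo receptors. GABARAPL1 had the largest fold change of the 7 listed genes. It (ENSG00000139112) lies at chr12:10212458-10223128 on the plus strand. Normalized read counts of GABARAPL1 were 419 and 404 in shctrl and 971 and 980 in shUSP2-AS1. The libraries within each group were close together and the groups far apart. The means were 412 ± 10.6 and 975 ± 6.58 (SD, n = 2). On the fitted scale the groups were 2.36-fold apart, with a log2 fold change of 1.24 (SE 0.08, 95% interval 1.08 to 1.41, limma adjusted p = 1.18e-10). GABARAPL1 was the one member whose interval lay wholly above the threshold of 1, and it ranked 787 from the top of the 6812 genes by log2 fold change, ahead of WIPI1 at 807 and ULK1 at 938. Of the exonic bases of GABARAPL1, 8.12% are shared with the long noncoding RNA GABARAPL1-AS1 on the opposite strand. The part of GABARAPL1-AS1 in the GABARAPL1 count was not tested.

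MAP1LC3B encodes LC3B, the ATG8 protein most used as a marker of autophagosomes. MAP1LC3B (ENSG00000140941) lies at chr16:87383953-87404779 on the plus strand. Its normalized read counts were 931 and 943 in shctrl and 1366 and 1581 in shUSP2-AS1. The controls nearly coincided, while the knockdown libraries, both higher, were 1.57-fold above them on the fitted scale. The means were 937 ± 8.08 and 1474 ± 152 (SD, n = 2), with a log2 fold change of 0.65 (SE 0.07, 95% interval 0.50 to 0.80; limma, adjusted p = 2.12e-07), not past the threshold of 1. Of the 75-base stretches in the main MAP1LC3B transcript, 15.7% also occur in its copy MAP1LC3B2, which had no row, so that reads from there could be split between them.

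GABARAPL2, which acts late in autophagosome maturation and also in transport through the Golgi, lies at chr16:75566375-75577881 on the plus strand (ENSG00000034713). Its normalized read counts were 769 and 692 in shctrl and 1079 and 1123 in shUSP2-AS1. Both knockdown libraries were above both controls. The means were 731 ± 54.3 and 1101 ± 31.5 (SD, n = 2), with a log2 fold change of 0.59 (SE 0.07, 95% interval 0.44 to 0.75; limma, adjusted p = 8.03e-07). The intervals of MAP1LC3B and GABARAPL2 overlapped each other and lay below that of GABARAPL1.

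Of the 7 ATG8 genes, 5 were listed, all 5 higher, with a median log2 fold change of 1.10, and 3 were called higher. Of all tested genes 50.6% were higher on adjusted p alone and 16.1% were called higher, with a median of 0.19. Besides GABARAPL1 these were MAP1LC3A and MAP1LC3C, which encode other LC3 forms. MAP1LC3A had normalized read counts of 104 and 120 in shctrl and 238 and 243 in shUSP2-AS1, for a log2 fold change of 1.10 (SE 0.14; limma, adjusted p = 1.18e-06). MAP1LC3C had few reads in the controls, with normalized read counts of 2.90 and 5.49, and was at 21.0 and 20.2 after knockdown, with a log2 fold change of 2.10 (SE 0.55; limma, adjusted p = 0.00132). It passed the filter on the mean only through the knockdown libraries, so its call was bound to be in the higher direction, and without it 2 of 4 were called, with a median of 0.87, against 14.5% and 0.11 for all tested genes with a mean of at least 10 in both groups. MAP1LC3A was not called with RLE scaling, in DESeq2 with its own size factors, in the test against a fold change of 2 or without shctrl replicate 1. GABARAP and MAP1LC3B2 had no row, so the make-up of the family given next covers the 5 listed genes only.

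Within each library, the share of each gene in the summed ATG8 counts per kb shows how the mixture differed, whatever the scaling. GABARAPL1 made up 16.2% and 16.0% of it in the controls and 21.9% and 20.9% in the knockdown libraries. GABARAPL2 made up 40.1% and 36.8% in the controls and 32.8% and 32.3% in the knockdown libraries. MAP1LC3B made up 29.0% and 29.9% in the controls and 24.8% and 27.1% in the knockdown libraries. GABARAPL1 therefore took a larger share, and GABARAPL2 and MAP1LC3B smaller shares, in both knockdown libraries than in either control, although all 3 had higher counts. The ratio of GABARAPL1 to GABARAPL2 per kb was 0.405 and 0.434 in shctrl and 0.668 and 0.648 in shUSP2-AS1. The ratio of MAP1LC3B to GABARAPL2 did not separate the groups, at 0.724 and 0.814 against 0.757 and 0.841. These ratios have 2 libraries a side and were not tested.

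**Figure D2:**
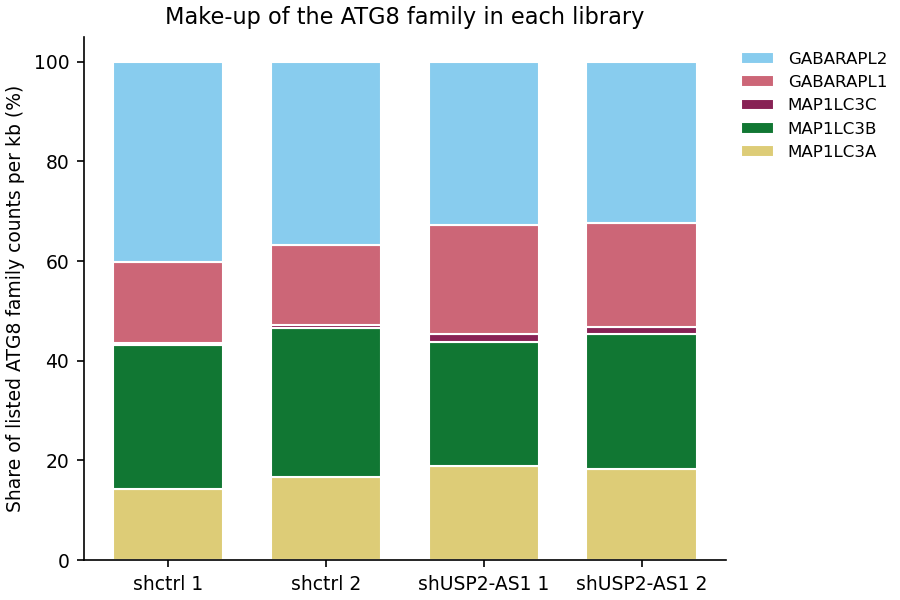
Share (percent) of each listed ATG8 gene in the summed normalized read counts per kb of the family, stacked to 100 for each of the 4 libraries. GABARAPL2 stays the largest part in each library but makes up 40.1 and 36.8 in the controls and 32.8 and 32.3 in the knockdown libraries, while GABARAPL1 goes from 16.2 and 16.0 to 21.9 and 20.9.

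Compared per kb of gene length, which is the scale for setting levels of different genes side by side, ULK1 had the highest level of the 7, at 325 ± 27.3 in shctrl and 701 ± 14.5 in shUSP2-AS1 (SD, n = 2). In the controls it was followed by GABARAPL2 at 243 ± 18.0, MAP1LC3B at 186 ± 1.60, ATG9A at 173 ± 3.05, ATG2A at 161 ± 10.4, GABARAPL1 at 102 ± 2.61 and WIPI1 at 66.6 ± 1.00. The narrowest step in that order was from ATG9A to ATG2A, whose nearest libraries were 171 and 168. In the knockdown libraries the levels per kb were 366 ± 10.5 for GABARAPL2, 293 ± 30.2 for MAP1LC3B, 241 ± 1.62 for GABARAPL1, 217 ± 3.64 for ATG9A, 190 ± 13.6 for ATG2A and 155 ± 14.9 for WIPI1. GABARAPL1 thus stood below ATG9A and ATG2A in both controls and above them in both knockdown libraries, and the other 6 kept their order. The length is that of all annotated exons of a gene, so a gene expressed from a short transcript has a higher true level than this scale shows.

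By fold change the 7 genes fell into steps. The 95% intervals of GABARAPL1, WIPI1 and ULK1 overlapped one another and lay above those of MAP1LC3B and GABARAPL2. ATG9A and ATG2A overlapped each other and were lowest, with the upper end of ATG9A (0.47) just reaching the lower end of GABARAPL2 (0.44). Of all tested genes, 88.4% had a lower log2 fold change than GABARAPL1, 71.9% a lower one than MAP1LC3B and 51.3% a lower one than ATG2A. ATG9A and ATG2A, though higher after knockdown, thus sat near the middle of the listed genes.

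**Figure D3:**
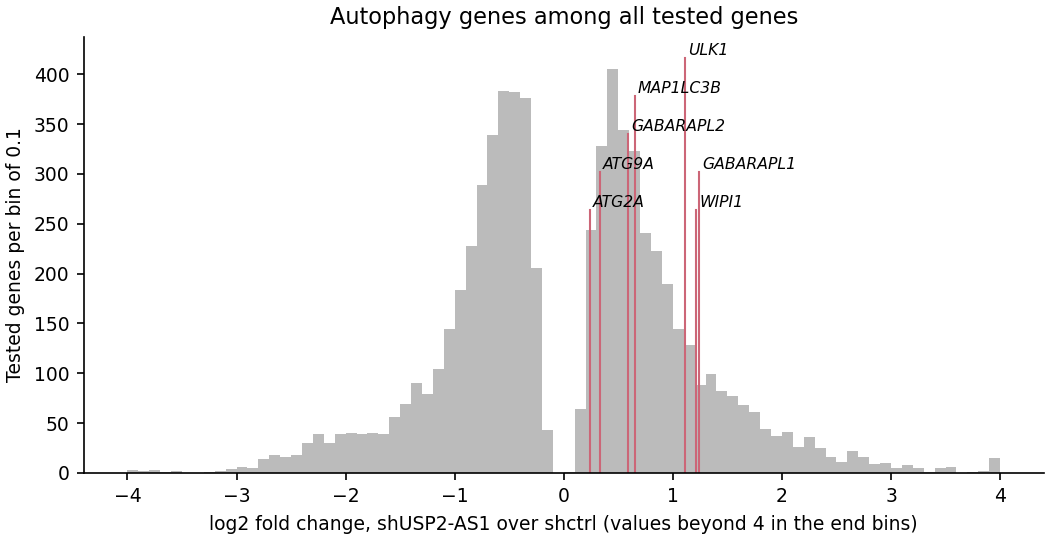
Number of tested genes (y axis) in each 0.1-wide bin of log2 fold change (x axis) for all 6812 genes in grey, with the 7 listed autophagy genes marked in red. The gap around 0 comes from the selection of the listing, ATG2A (0.24) and ATG9A (0.33) lie at the inner edge of the higher side, and ULK1, WIPI1 and GABARAPL1 (1.11 to 1.24) lie beyond its peak.

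The rest of the pathway was described from lists written by role, also with earlier results of these data known. The lists of autophagy machinery and of TFEB's own family held 77 genes, of which 42 were listed and 35 had no row. Of the 42, 9 were called higher and 1 lower, with a median log2 fold change of 0.43. Without the 10 named genes, 35 were listed, 6 were called higher and 1 lower, and the median was 0.41. On adjusted p alone 24 of these 35 were higher and 11 lower. ATG9B and MAP1LC3C passed the filter only through the knockdown libraries and so had to be higher. Without them, a count added after their values were seen, 7 of 40 were called higher and 1 lower, with a median of 0.41, and outside the named genes 4 of 33 were called higher and 1 lower, with a median of 0.36. Of the 6616 tested genes with a mean of at least 10 in both groups, 14.5% were called higher and 13.1% lower, with a median of 0.11. The other counts, and those of each list, are to be read against the 16.1% and 13.5% of all tested genes called higher and lower, the 50.6% and 49.4% on adjusted p alone, and the overall median of 0.19.

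BECN1 was the 1 gene called lower. BECN1 (Beclin 1) is the scaffold of the lipid kinase complex that acts directly after ULK1, and its normalized read counts were 1086 and 1029 in shctrl and 381 and 330 in shUSP2-AS1. Its log2 fold change was -1.57 (SE 0.09; limma, adjusted p = 2.13e-11), and the groups were far apart relative to their spread. The other listed members of that complex were also lower without being called, PIK3R4 at -0.54 and ATG14 at -0.49 on the log2 scale, while 5 of 8, among them the catalytic subunit PIK3C3, had no row. ULK1 and BECN1, consecutive in the pathway, thus differed in opposite directions, and their ratio per kb was 1.81 and 2.15 in the controls and 11.6 and 13.8 in the knockdown libraries. Of the exonic bases of BECN1, 12.4% overlap CNTD1 (no row) and 4.68% overlap PSME3 (log2 fold change -0.49), both on the opposite strand. Of the 75-base stretches of the main BECN1 transcript, 35.6% also occur in CNTD1. The part of CNTD1 and PSME3 in the BECN1 value was not tested.

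In the conjugation list, which holds the enzymes that attach ATG8 proteins to lipid, 4 of 11 genes were listed and none was called, in limma with Benjamini-Hochberg adjustment. ATG16L2, the relative of ATG16L1, had a log2 fold change of 0.63 and normalized read counts of 213 and 216 in shctrl and 326 and 338 in shUSP2-AS1. ATG4A, a protease that trims ATG8 proteins, had one of 0.60. ATG3, the enzyme that hands ATG8 to the lipid, had one of -0.35. The core enzymes ATG5 and ATG7 had no row, as was the case for ATG16L1.

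Cargo receptors tie cargo to ATG8 proteins, and 13 of 18 were listed, though SQSTM1 was not. CCPG1 and RETREG1, both receptors for pieces of the endoplasmic reticulum, were called higher. CCPG1 had normalized read counts of 236 and 249 in shctrl and 732 and 697 in shUSP2-AS1 (log2 fold change 1.55, SE 0.09; limma, adjusted p = 6.48e-11). RETREG1 was at 57.0 and 52.8 against 119 and 113 (log2 fold change 1.06, SE 0.19; limma, adjusted p = 5.32e-05). OPTN, a receptor for damaged mitochondria and bacteria, had a log2 fold change of 0.89, and NBR1, which shares its domain layout with SQSTM1, had one of -0.56. The 2 calls among 13 receptors were about the share of all tested genes called higher (16.1%), and on adjusted p alone 10 were higher and 3 lower, against 50.6% and 49.4% of all tested genes. RETREG1 lost its call with RLE scaling, in DESeq2 with its own size factors and in the test against a fold change of 2.

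For the fusion of autophagosomes with lysosomes, 5 of 14 genes were listed. VAMP8, the lysosomal SNARE of that fusion, was called higher, at 214 and 177 in shctrl and 408 and 415 in shUSP2-AS1 (log2 fold change 1.08, SE 0.12; limma, adjusted p = 1.52e-07), though not with RLE scaling, in DESeq2 with its own size factors, in the test against a fold change of 2 or without shctrl replicate 2. Its partner on the autophagosome, STX17, had a log2 fold change of 0.44, and RAB7A, the late endosome GTPase, had one of -0.39.

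**Figure D4:**
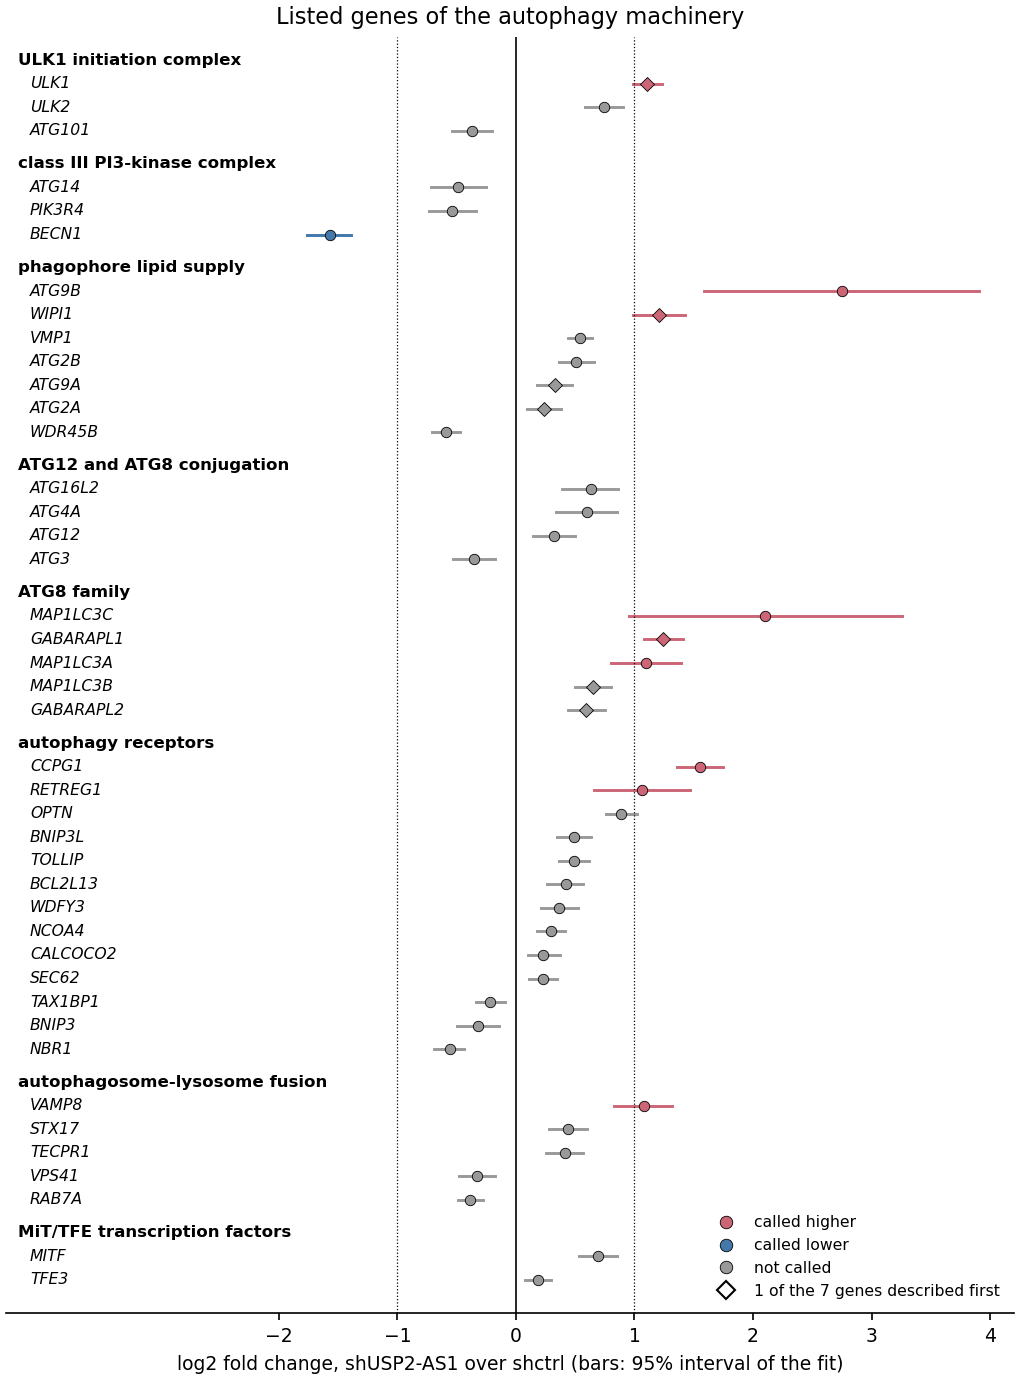
Log2 fold change of shUSP2-AS1 over shctrl (x axis; bars give the 95% interval of the fit) for each listed gene of 8 autophagy lists, with diamonds for the 7 genes described first, and red, blue and grey for called higher, called lower and not called. Most genes lie to the right of 0, and the 3 listed genes of the class III PI3-kinase complex, led by BECN1 at -1.57, lie to its left.

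TFEB had no row, and of the 4 genes of its family MITF and TFE3 were listed. Both factors bind the same DNA element as TFEB. MITF had normalized read counts of 556 and 580 in shctrl and 937 and 898 in shUSP2-AS1, for a log2 fold change of 0.69 (SE 0.08; limma, adjusted p = 1.53e-07). TFE3 was at 2523 and 2508 against 2921 and 2834, with a log2 fold change of 0.19 (SE 0.05; limma, adjusted p = 0.00183). Neither was called.

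The proteins that control where TFEB resides were read from a list of 28 genes of mTORC1, its Rag GTPases, the folliculin complex, the sestrins and 14-3-3 proteins. Of these, 12 were listed and 2 were called higher, about the share of all tested genes (16.1%). SESN3, of the sestrin family known to restrain mTORC1, had normalized read counts of 102 and 104 in shctrl and 307 and 290 in shUSP2-AS1 (log2 fold change 1.52, SE 0.13; limma, adjusted p = 9.77e-09). FNIP2, a partner of folliculin in the complex that acts on RagC, had 139 and 158 against 409 and 323 (log2 fold change 1.29, SE 0.13; limma, adjusted p = 9.16e-08), a call lost in the test against a fold change of 2. RPTOR, the mTORC1 subunit that recognises substrates, had a log2 fold change of -0.45, and the 14-3-3 gene YWHAZ one of -0.48. MTOR, TSC2 and RRAGC had no row.

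Lysosomal genes, in a list of those TFEB is known to bind, were mostly higher. Of 30 such genes 23 were listed, 21 were higher and 2 lower on adjusted p alone, 5 were called higher and none lower, and the median log2 fold change was 0.53. Over all tested genes 16.1% were called higher and 13.5% lower, and 50.6% were higher on adjusted p alone, so the 5 calls of 23 lie near the background. The 5 were GPNMB, CTSS, SCPEP1, GLB1 and TPP1. GPNMB, a membrane glycoprotein of lysosomes and melanosomes, went from 68.6 and 87.9 normalized read counts to 510 and 456 (log2 fold change 2.62, SE 0.14; limma, adjusted p = 1.87e-11). CTSS, a cathepsin protease, went from 444 and 395 to 1237 and 1300 (log2 fold change 1.60). GLB1, the lysosomal beta-galactosidase whose activity is stained as a mark of senescence, went from 1238 and 1269 to 2506 and 2757 (log2 fold change 1.07, SE 0.06; limma, adjusted p = 3.42e-11). The calls of GLB1 and TPP1 were lost with RLE scaling, in DESeq2 with its own size factors and in the test against a fold change of 2, and that of GLB1 also without shUSP2-AS1 replicate 2.

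Among the rest of that list, SCPEP1, a serine carboxypeptidase, had a log2 fold change of 1.25 and TPP1, a tripeptidyl peptidase, one of 1.03. LAMP2, a main protein of the lysosome membrane, was just under the threshold at 0.96, from 2218 and 2294 to 4397 and 4370. ATP6V1A, the catalytic subunit of the proton pump, was the clearest exception at -0.81, from 1183 and 1129 to 661 and 653. The other listed pump subunits were higher without being called, ATP6V0D1 at 0.41, ATP6V0E1 at 0.53 and ATP6V1H at 0.29. PIP4P1, a lysosomal phosphoinositide phosphatase, was the other lower gene of the list, at -0.35.

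**Figure D5:**
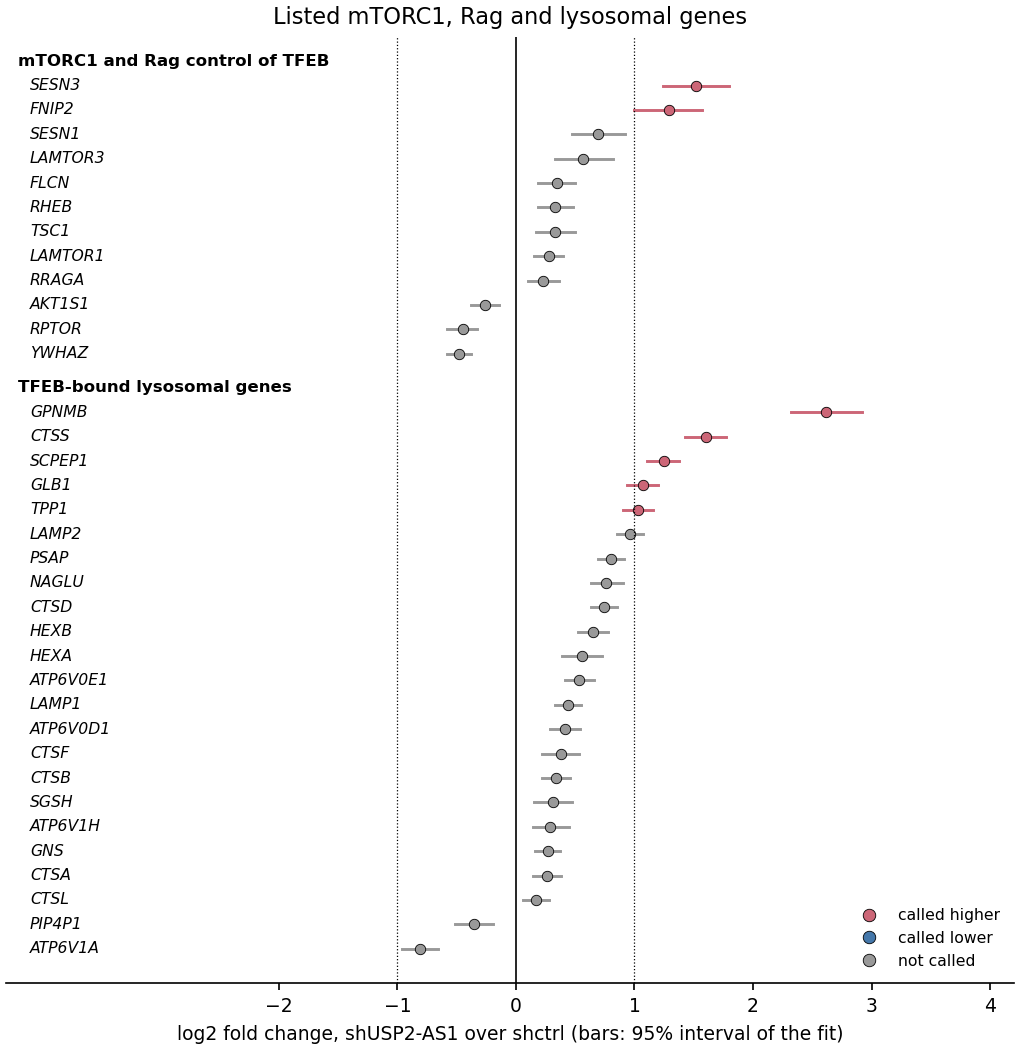
Log2 fold change of shUSP2-AS1 over shctrl (x axis; bars give the 95% interval of the fit) for the 12 listed genes of mTORC1 and Rag control and the 23 listed lysosomal genes, red where called higher and grey where not called. GPNMB (2.62) lies furthest right, ATP6V1A (-0.81) furthest left, and no gene of either list is called lower.

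The promoters of the 10 autophagy genes were read for the element that TFEB and its relatives bind. RefSeq windows from 250 bases before to 50 bases after each annotated start (GRCh38.p14) were held for all 10 genes, 14 windows in all. The letters TCACGTGA, which read the same on both strands, occurred in 0 of the 14 windows, and in 344 of 35116 windows of all genes (0.980%). The shorter letters CACGTG, which are contained in TCACGTGA, also occurred in 0 of the 14 and in 2548 of all windows (7.26%). No match says only that these letters are not in this window. The member windows were rich in G and C, with a median of 74.0% against 58.7% over all windows.

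The windows of the 3 genes called higher are printed to show this sequence. The first 250 bases are in lower case and the 50 bases from the annotated start onward are in capitals, on the strand of the gene. They lie at chr12:131894372-131894671 (plus strand) for ULK1, chr12:10212627-10212926 (plus strand) for GABARAPL1 and chr17:68457447-68457746 (minus strand) for WIPI1. The RefSeq starts of GABARAPL1 and WIPI1 differ from those given in the deposited table, and that of ULK1 is the same.

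ULK1: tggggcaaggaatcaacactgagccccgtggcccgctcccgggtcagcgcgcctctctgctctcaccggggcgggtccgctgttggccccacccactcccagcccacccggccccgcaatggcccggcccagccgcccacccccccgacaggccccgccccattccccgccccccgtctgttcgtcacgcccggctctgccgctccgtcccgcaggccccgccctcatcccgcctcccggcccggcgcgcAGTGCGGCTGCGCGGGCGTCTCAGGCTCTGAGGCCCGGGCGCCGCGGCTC

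GABARAPL1: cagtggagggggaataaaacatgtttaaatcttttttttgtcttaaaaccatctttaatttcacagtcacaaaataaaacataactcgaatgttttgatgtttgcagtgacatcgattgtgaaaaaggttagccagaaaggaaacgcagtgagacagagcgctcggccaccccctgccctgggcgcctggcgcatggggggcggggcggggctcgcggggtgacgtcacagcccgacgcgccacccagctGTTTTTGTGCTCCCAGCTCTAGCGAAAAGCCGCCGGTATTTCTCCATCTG

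WIPI1: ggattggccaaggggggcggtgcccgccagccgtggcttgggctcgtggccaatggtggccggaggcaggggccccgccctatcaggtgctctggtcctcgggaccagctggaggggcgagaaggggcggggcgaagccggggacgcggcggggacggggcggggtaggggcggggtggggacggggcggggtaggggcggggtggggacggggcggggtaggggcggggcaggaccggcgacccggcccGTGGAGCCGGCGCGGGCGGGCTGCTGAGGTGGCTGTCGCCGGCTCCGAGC

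The ULK1 and WIPI1 windows are 78.3% and 79.7% G and C, and the WIPI1 window repeats a G-rich unit before its start. The GABARAPL1 window is 51.7% G and C, with a stretch rich in A and T at its far end. The ULK1 and WIPI1 windows were thus alike in their summed share of G and C, and that of the GABARAPL1 window was lower.

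In the lysosomal list, 15 of 30 genes had a window, and 5 of the 15 (33.3%) held TCACGTGA, while 9 (60.0%) held CACGTG. Of all 27305 genes with a window, 1.18% held the longer and 8.77% the shorter letters. The list was made of genes that TFEB is known to bind, so a high share was built into its choice. For contrast with the autophagy genes, the 60 bases around the match are printed for 3 of the 5, with the element in capitals. They are SCPEP1 at chr17:56978077-56978136, LAMP1 at chr13:113297184-113297243 and CTSA at chr20:45891283-45891342, all on the plus strand of GRCh38.p14.

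SCPEP1: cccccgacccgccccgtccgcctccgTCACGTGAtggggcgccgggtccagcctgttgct

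LAMP1: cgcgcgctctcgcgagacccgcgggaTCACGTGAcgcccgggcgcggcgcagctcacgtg

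CTSA: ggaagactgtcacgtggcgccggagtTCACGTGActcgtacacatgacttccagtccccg

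SCPEP1 was called higher, at 767 and 746 normalized read counts in shctrl and 1817 and 1774 in shUSP2-AS1. LAMP1, at 2795 and 2803 against 3754 and 3849, had a log2 fold change of 0.44, and CTSA, at 1647 and 1612 against 1981 and 1925, one of 0.26. The element also occurred in the windows of 3 genes of the autophagy lists, ATG3, NRBF2 and VPS11, of which ATG3 was listed, with a log2 fold change of -0.35. ATP6V0D1, another lysosomal gene with the element, had a log2 fold change of 0.41, and MCOLN1 had no row. The listed lysosomal genes with the element were thus all higher, by different amounts, and ATG3 alone was lower. A match is a description of letters and was not tested as a binding site.

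The label of the cells was read against marker genes. Of 8 epithelial markers 5 were listed. KRT8 had normalized read counts of 87504 and 79777 in shctrl and 48220 and 49976 in shUSP2-AS1, and KRT18 went from 30473 and 29565 to 14145 and 14811 (log2 fold change -1.05). KRT7, the highest of the 5 per kb (14141 ± 359 in shctrl and 10048 ± 672 in shUSP2-AS1, SD, n = 2), was also lower (log2 fold change -0.49), while KRT19 (0.75) and CLDN4 (1.81) were higher. All 5 were well above the filter in every library, and EPCAM, CDH1 and CLDN7 had no row. Of the markers of other cells, 0 of 5 leukocyte genes and 0 of 4 endothelial genes had a row, and 2 of 6 fibroblast genes did. The listing held genes that differed between the groups, so a gene without a row may still be expressed. Missing rows therefore cannot show whether other cells were present. COL1A1 was at 261 and 293 in shctrl and 530 and 618 in shUSP2-AS1, and LUM at 1.93 and 1.10 against 25.2 and 15.8, from 2 and 1 control reads, so that it passed the filter only through the knockdown libraries. KRT19, CLDN4 and COL1A1 were thus higher along with the autophagy genes, while KRT7, KRT8 and KRT18 were lower, and their part in the result was not tested.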

How the data were processed

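RNA-seq of A549 cells was compared between shctrl and shUSP2-AS1, with 2 biological replicates per group. According to the submitters' processing notes, HISAT2 (version 2.0.5), featureCounts (version 1.5.0-p3), DESeq2 (version 1.20.0) and the hg38 build were used; the annotation release and the strand setting are not given in the sources used here. The deposited table holds a normalized signal per gene and library, made by the authors as a read count over a size factor, with their group means and the gene length in bases. Columns with the log2 fold change and the p-values of the comparison made by the authors are also deposited; they were not used, except to test that the adjusted p-value was below 0.05 in all 6828 rows. Library columns carried the names scr and sh216 with a replicate number, and 0 columns of other samples were present. Their match to shctrl and shUSP2-AS1 was inferred, scr being the only control and sh216 the only other hairpin. The replicate numbers equalled those in the sample titles.

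Dividing by the value of 1 read gave whole reads for 100% of values in each library (tolerance 0.001). Counts of replicates were more unequal than counting error alone gives (chi-square per degree of freedom 3.72 in shctrl and 3.83 in shUSP2-AS1). Limma (version 3.58.1, R version 4.3.3; lmFit, eBayes with a trend) was fitted to log2(value + 1). The filter on a mean of 10 left out 16 genes. The alternatives were a pseudocount of 0.1, no filter, at least 10 reads in every library, RLE, upper quartile and TMM scaling, edgeR (version 4.0.16) and DESeq2 (version 1.42.0) on the recovered reads, a replicate block, no fold change threshold, a limma test against a fold change of 2, adjustment over 20000 tests, and each library left out. The fit was tested on simulated data. Shared exons and 75-base stretches were taken from GENCODE release 44, and promoter windows from RefSeq; all 14 member windows equalled hg38.

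The members and the gene lists were chosen with earlier results of these data known. The genes named were the 10 members, USP2-AS1, every called gene of each list and, where none was called, the 3 with the lowest p. Genes near TFEB in pattern could not be named because TFEB had no row. Other list genes (among them ULK2, ATG101, PIK3R4, ATG14, VMP1, ATG2B, WDR45B, OPTN, NBR1, STX17, RAB7A, RPTOR, YWHAZ, LAMP1, LAMP2, CTSA, PIP4P1 and the proton pump genes) were added after their values were seen.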

Additional observations from a re-analysis of the deposited data

How the results depend on the processing

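All 7 autophagy genes kept their direction under each of the 13 other settings and with each library left out. GABARAPL1 stayed called throughout, with a log2 fold change of 1.12 to 1.3 over the settings and 1.22 to 1.27 with a library left out. Under RLE scaling, which lowered the median of all tested genes by 0.12 on the log2 scale, ULK1 was at 0.99 (adjusted p = 8.20e-10) and no longer called, as with DESeq2 and its own size factors (0.99, adjusted p = 8.73e-42). Tested by limma against a fold change of 2, WIPI1 (1.21, adjusted p = 0.158) and ULK1 (1.11, adjusted p = 0.188) lost their call. With no fold change threshold MAP1LC3B (0.65), GABARAPL2 (0.59), ATG9A (0.33) and ATG2A (0.24) passed as well, for the adjusted p alone. The number of the 7 called higher was 3, against 2 with RLE, 1 against a fold change of 2 and 7 with no threshold; it was 3 to 3 with a library left out, and 0 to 0 were called lower.

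In the lists as a whole, 16 genes were called higher and 1 lower. The higher count was 10 with RLE, 10 with DESeq2 and its own size factors, 7 against a fold change of 2 and 61 with no threshold, which also gave 16 lower. With at least 10 reads in every library it was 14, without ATG9B and MAP1LC3C. The calls lost with RLE and with DESeq2's own size factors were those of GLB1, MAP1LC3A, RETREG1, TPP1, ULK1 and VAMP8, and the test against a fold change of 2 lost these and FNIP2, MAP1LC3C and WIPI1. Leaving out a library gave 13 to 15 higher and 1 to 1 lower: MAP1LC3A lost its call without shctrl replicate 1, VAMP8 without shctrl replicate 2, MAP1LC3C without shUSP2-AS1 replicate 1, and ATG9B, GLB1 and MAP1LC3C without shUSP2-AS1 replicate 2. Over all genes, 1098 higher and 922 lower became 541 and 523 against a fold change of 2, 3449 and 3362 with no threshold, and 930 and 1143 with RLE; with a library left out they were 1054 to 1112 and 885 to 958. The log2 fold changes with a library left out were 1.11 to 1.31 for WIPI1, 1.03 to 1.2 for ULK1, 0.54 to 0.75 for MAP1LC3B, 0.52 to 0.67 for GABARAPL2, 0.31 to 0.34 for ATG9A and 0.17 to 0.31 for ATG2A.

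The replicate block changed no call, with 3 of the 7 and 17 list genes called as before, and its log2 fold changes were the same (1.24 for GABARAPL1). The differences between replicates 1 and 2 of the groups correlated at -0.04 across genes, so no common replicate effect was visible. This value cannot show whether libraries with the same number were prepared together. With 2 libraries a group, a single library has much weight, and ATG9B and MAP1LC3C rest on few control reads. A fit with a library left out has a single library in that group, so its spread comes from the other group.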
